A study of Mus musculus with 4 samples.

Results

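Chemokines are small secreted proteins that guide migrating leukocytes, and their receptors are G protein-coupled proteins on the migrating cells. The family members described here are the array probes whose gene name in the array design is that of a chemokine ligand or receptor of the CC, CXC, CX3C or XC class, a Ccrl gene or Ppbp. By this rule 72 of 55681 probes were members, and they stood for 57 genes, 36 of them chemokines and 21 receptors. The samples were adipocyte progenitors, cells that can become fat cells, of the subcutaneous depot, from male FVB mice at 4 weeks of age, sorted by flow cytometry and lysed without culture or treatment. There were 2 samples from Adamts1 transgenic mice and 2 from wild-type mice, each hybridised to its own single-colour Agilent array. The Adamts1 protein is a metalloprotease that acts in the extracellular matrix. Which promoter drives the transgene, and in which cells, is not in the labels.

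In fat as in other tissues, chemokines fall into broad roles by the cells that make them. Stromal cells such as fibroblasts and progenitors make Ccl2, Ccl7, Cxcl1 and Cxcl12, which draw monocytes and neutrophils or hold leukocytes in place. Macrophages and other myeloid cells make Ccl3, Ccl4, Ccl6 and Ccl9. Atypical receptors, of which Ackr3 is one that stromal cells carry, bind chemokines without G protein signalling and remove them. Many chemokine genes are induced through NF-kB, a transcription factor that inflammatory cytokines activate.

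Promoter sequence shows what several neighbouring chemokine genes share that the choice of members did not use. In RefSeq promoter sequence for 42 of the 57 members, 9 genes (21.4%) held the NF-kB consensus on either strand within 250 bases before the start, against 1204 of 27025 genes (4.46%) over the whole promoter table. The lines below show, 5′ to 3′ on the strand of the gene and with the matched bases in capitals, the windows of the neutrophil attractants Cxcl1, Cxcl2 and Cxcl3, of the interferon-induced Cxcl10 and of Ccl9, the member of those called higher whose window held a match.
Cxcl1 (GRCm38.p6, chr5:90891134-90891224, plus strand): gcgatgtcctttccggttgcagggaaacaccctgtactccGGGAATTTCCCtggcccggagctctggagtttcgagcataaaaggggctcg
Cxcl2 (GRCm38.p6, chr5:90903762-90903852, plus strand): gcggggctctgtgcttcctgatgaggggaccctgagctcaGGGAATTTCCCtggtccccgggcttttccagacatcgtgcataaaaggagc
Cxcl3 (GRCm38.p6, chr5:90785988-90786078, plus strand): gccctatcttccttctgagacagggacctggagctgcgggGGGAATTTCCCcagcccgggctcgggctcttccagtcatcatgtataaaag
Cxcl10 (GRCm38.p6, chr5:92348943-92349088, minus strand): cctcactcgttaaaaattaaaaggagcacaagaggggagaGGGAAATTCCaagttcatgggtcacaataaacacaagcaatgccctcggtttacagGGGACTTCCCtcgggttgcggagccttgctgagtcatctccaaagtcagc
Ccl9 (GRCm38.p6, chr11:83578637-83578711, minus strand): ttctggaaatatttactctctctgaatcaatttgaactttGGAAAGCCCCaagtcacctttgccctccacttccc

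Cxcl1, Cxcl2 and Cxcl3 carried the same 11 capital letters, which hold 2 overlapping matches. Cxcl10 carried 2 separate matches, the nearer to the start beginning 103 bases before it. The match of Ccl9 began 35 bases before its start. Of the 4 genes called higher that have a window in the table, 1 held a match, and a match is a description of letters and not of binding. The other members with a match were Ccl20, Ccr3, Ccr6 and the atypical receptor Ccrl2.

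All values below are normalised log2 signals, where 0 is the 75th percentile of the array's own signals, so that each gene is compared between arrays and not with another gene. A probe had a level only where its spot was well above background by the scanner's own flag. The arrays differed in this: 57.0% and 56.0% of spots were well above background on transgenic arrays 1 and 2, against 47.0% and 55.5% on wild-type arrays 1 and 2. The lowest signal well above background was -4.98 and -4.93 on the transgenic arrays and -3.60 and -4.94 on the wild-type arrays. Wild-type array 1 was thus the dimmest, and it correlated with the transgenic arrays at 0.977, against 0.984 for wild-type array 2 and 0.994 between the transgenic arrays. The wild-type arrays correlated with each other at 0.984, as wild-type array 2 did with the transgenic arrays. The 14 progenitor markers, Pdgfra among them at 5.28 and 5.42 on the transgenic and 5.23 and 5.32 on the wild-type arrays, were well above background on every array. Of these, 10 were lower on both transgenic arrays than on either wild-type array, against 28.6% of all features, and 3 were higher, against 24.6%. The median log2 difference of the 14, transgenic minus wild type, was -0.30. Adamts1 itself was at 6.77 and 6.82 on the transgenic arrays, against 6.65 and 6.73 on the wild-type arrays. Its log2 difference of 0.11 ± 0.09 SE was not called (limma adjusted p = 0.573), and whether its probe reads the transgene is not given, so this gene does not check the labels.

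A gene was tested if all arrays of 1 group or the other had its brightest probe well above background. This was so for 37 of the 57 members and left 20 untested. Of the 37, 10 passed through the transgenic arrays alone and none through the wild-type arrays alone, so a count of higher members leans toward the transgenic arrays. The groups were compared with limma over 24454 features, and those with an adjusted p under 0.05 were called. Of the 37 tested members 6 were called higher and 0 lower, against 0.969% of all features called higher, 0.752% called lower and 1.72% called in either direction. At an unadjusted p under 0.05 there were 15 members. Transgenic and wild-type arrays did not overlap for 16 members with the transgenic arrays higher, against 24.6% of all features, and for 9 with the transgenic arrays lower, against 28.6% of all features. The labels do not say that the samples came from separate animals, so p-values speak of the spread among these arrays alone. An exact permutation test of 2 arrays against 2 cannot give a p below 0.333.

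**Figure D1:**
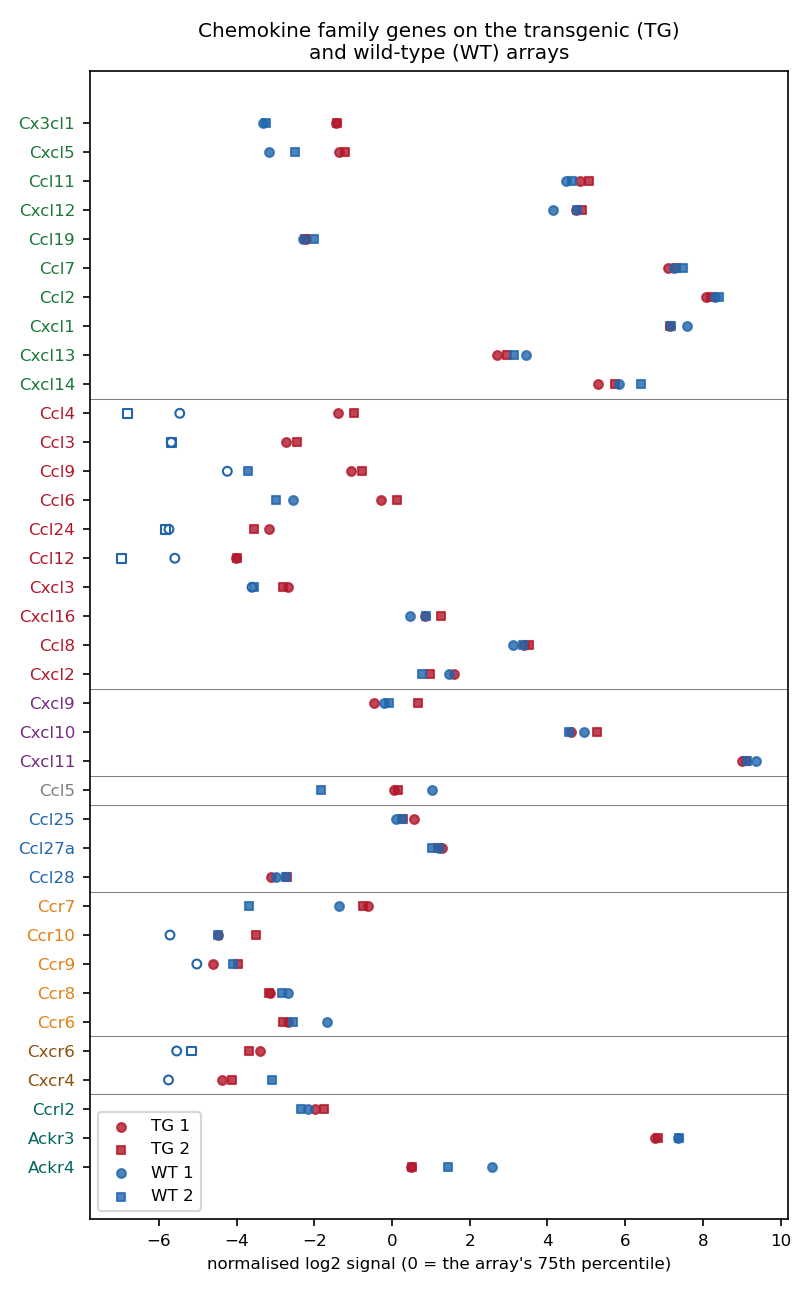
Normalised log2 signal (horizontal axis, 0 is the array's 75th percentile) of the 37 tested chemokine family genes on transgenic (TG, red) and wild-type (WT, blue) arrays 1 (circles) and 2 (squares), with open symbols where the spot was not well above background. Gene names are coloured and ruled off by role, top to bottom stromal, myeloid, interferon-induced, lymphocyte and epithelial chemokines, CC receptors, CXC receptors and atypical receptors. Red and blue separate most widely for Ccl4, with -1.38 and -0.97 on the transgenic arrays against -5.46 and -6.82 on the wild-type arrays.

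Among the stromal chemokines Cx3cl1 rose and the others did not pass the test. All 10 were tested and well above background on every array, 1 rose and 0 fell, and their median log2 difference was -0.13, against -0.02 over all features. Cx3cl1, or fractalkine, is made as a membrane-bound protein and shed. It was at -1.43 and -1.43 on the transgenic arrays, against -3.33 and -3.24 on the wild-type arrays. The transgenic arrays were both higher, without overlap, by 3.62-fold (log2 difference 1.86 ± 0.20 SE, adjusted p = 0.0279). The receptor of fractalkine, Cx3cr1, had no probe well above background on any array.

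Cxcl5, a neutrophil attractant, was at -1.36 and -1.21 on the transgenic arrays, against -3.17 and -2.50 on the wild-type arrays. These groups did not overlap either, and the difference of 1.55 ± 0.28 SE missed the threshold (adjusted p = 0.0718). Ccl11, or eotaxin, the attractant of eosinophils, stood at 4.83 and 5.07 on the transgenic arrays and 4.48 and 4.64 on the wild-type arrays, a difference of 0.39 ± 0.12 SE (adjusted p = 0.183). It was a little higher on both transgenic arrays. Cxcl13, which attracts B cells, had 2.71 and 2.95 on the transgenic arrays and 3.45 and 3.13 on the wild-type arrays, a difference of -0.46 ± 0.15 SE (adjusted p = 0.190). Both transgenic arrays were lower, and neither of these differences was called.

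The monocyte attractants Ccl2 and Ccl7 were not called. Ccl2 was at 8.09 and 8.22 on the transgenic arrays, against 8.31 and 8.42 on the wild-type arrays, and its difference of -0.21 had a 95% interval of -0.50 to 0.08. Ccl7 was at 7.10 and 7.31 on the transgenic arrays and 7.26 and 7.49 on the wild-type arrays, with a difference of -0.17 and an interval of -0.51 to 0.16. The arrays overlapped for Ccl7 and not for Ccl2. For the neutrophil attractant Cxcl1, whose promoter is shown above, the values were 7.15 and 7.16 on the transgenic arrays and 7.59 and 7.17 on the wild-type arrays, with an interval of -0.62 to 0.17. Cxcl14, an epithelial and stromal chemokine, had 5.29 and 5.75 on the transgenic arrays and 5.83 and 6.42 on the wild-type arrays (difference -0.61 ± 0.24 SE, adjusted p = 0.262). Of the rest, Cxcl12, the ligand of Cxcr4, differed by 0.36 ± 0.21 SE and Ccl19, a ligand of Ccr7, by -0.08 ± 0.21 SE, with overlapping arrays for both.

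Myeloid chemokines held most of the calls. Of 13 genes 10 were tested, 5 rose and 0 fell, and the median log2 difference of the tested genes was 2.35, but 6 of the 10 were tested through the transgenic arrays alone. With such genes set to the lower bounds explained below, the median was 0.86, and over the 4 genes well above background on every array it was 0.31, with 1 of these, Ccl6, called higher. Among all features well above background on every array, 0.815% were higher and 0.89% lower.

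Ccl6, a rodent chemokine of macrophages, was at -0.29 and 0.12 on the transgenic arrays, against -2.55 and -2.99 on the wild-type arrays. It was well above background on all of them, the groups did not overlap, and it rose 6.43-fold (log2 difference 2.68 ± 0.24 SE, adjusted p = 0.0239). Its neighbour Ccl9, a rodent ligand of Ccr1, was at -1.06 and -0.78 on the transgenic arrays and -4.24 and -3.72 on the wild-type arrays (difference 3.06 ± 0.27 SE, adjusted p = 0.0226). Wild-type array 2 alone of the wild-type arrays had a level well above background for Ccl9.

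For a gene like Ccl9 the size is best given as a bound, since a spot that is not well above background limits the level from above alone. The bound sets the mean of the brighter group against a mean in which, on each array of the dimmer group, the probe takes no less than the lowest signal that was well above background there. It is not strict, since some spots brighter than that lowest signal were themselves not well above background. Ccr3, for one, was at -4.79 on wild-type array 2, where that lowest signal was -4.94. Ccl9 rose at least 6.68-fold by this bound. The measured group means behind it were -0.92 on the transgenic arrays and -3.98 on the wild-type arrays.

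Ccl4, which draws monocytes and T cells, was at -1.38 and -0.97 on the transgenic arrays, against -5.46 and -6.82 on the wild-type arrays, where it was not well above background. It rose at least 8.52-fold (group means -1.18 on the transgenic and -6.14 on the wild-type arrays, difference 4.96 ± 0.50 SE, adjusted p = 0.0269). Ccl3, a ligand of Ccr1, was at -2.73 and -2.44 on the transgenic arrays and -5.68 and -5.69 on the wild-type arrays. Ccl3, too, lacked a level well above background in wild type and rose at least 3.21-fold (group means -2.59 on the transgenic and -5.68 on the wild-type arrays, adjusted p = 0.0253).

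Ccl24, an eotaxin that acts through Ccr3, was at -3.18 and -3.56 on the transgenic arrays, against -5.74 and -5.82 on the wild-type arrays. It rose at least 1.87-fold (group means -3.37 on the transgenic and -5.78 on the wild-type arrays, adjusted p = 0.0444), again with no wild-type array well above background. Ccl12, a monocyte attractant of the mouse, had -4.00 and -3.99 on the transgenic arrays and -5.59 and -6.97 on the wild-type arrays and was not called (difference 2.28 ± 0.55 SE, adjusted p = 0.125). Neither wild-type array was well above background for Ccl12, whose difference was 2.97 without wild-type array 1 and 1.59 without wild-type array 2 (adjusted p = 0.0254 and 0.0269), and 0.090 with normexp correction (adjusted p = 0.851). The bounds of the called genes depended on which wild-type array entered. Without wild-type array 2 they were 5.36-fold for Ccl4, 2.02-fold for Ccl3 and 1.17-fold for Ccl24, and without wild-type array 1 they were 13.5-fold, 5.10-fold and 2.96-fold for the same genes.

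The remaining myeloid chemokines were not called. Ccl8, which draws monocytes and other leukocytes, had a difference of 0.23 ± 0.12 SE, Cxcl16, the ligand of Cxcr6, of 0.38 ± 0.21 SE and the neutrophil attractant Cxcl2 of 0.16 ± 0.30 SE. Cxcl3, a close relative of Cxcl2, differed by 0.83 ± 0.23 SE and was well above background on 1 of the wild-type arrays. Cxcl1, Cxcl2 and Cxcl3, whose promoter windows carry the same matched letters, thus had differences of -0.23, 0.16 and 0.83, none of them called. Ccl17, Ccl22 and the platelet chemokine Ppbp were not tested, and of these Ccl22 alone was well above background anywhere, on wild-type array 2.

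The number of calls depended on the arrays and on the background correction. Without transgenic array 1 only Ccl6 was called among the members, and without transgenic array 2 none was by limma, with 12 members at an unadjusted p under 0.05. The adjusted p of Ccl6 was 0.0375 without transgenic array 1 and 0.0535 without transgenic array 2. Without wild-type array 1 there were 13 member calls and without wild-type array 2 there were 16. In each of these fits 1 group is a single array, assumed to vary like the other group, and without a wild-type array the spread comes from the close transgenic pair, so these added calls are no support for a difference. With normexp background correction, which adds a constant to every signal, the log2 difference of Ccl4 was 1.37, of Ccl9 1.40, of Ccl6 1.63 and of Cx3cl1 0.87, all 4 still called, and Ccl3 at 0.65 and Ccl24 at 0.33 were not. For Ccl4, Ccl9, Ccl3 and Ccl24 these values are smaller than the bounds above, which hold for the processed signals as deposited. With quantile normalization Ccl3 (adjusted p = 0.0529) and Ccl24 (adjusted p = 0.0796) were not called, and with no intensity trend in the variance none of the 6 was, at adjusted p-values of 0.0521 to 0.0878. The myeloid median was 0.34 with normexp correction, and the stromal median stayed at -0.13.

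**Figure D2:**
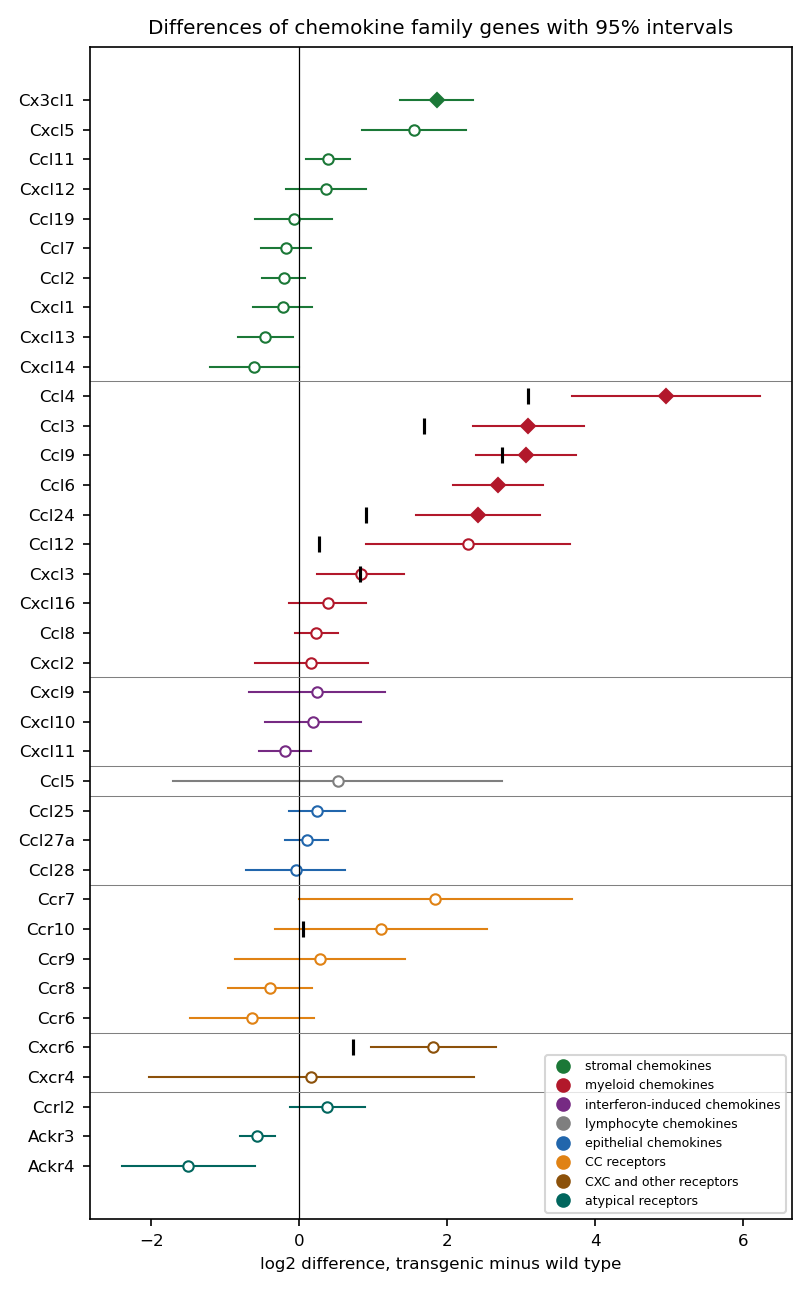
Log2 difference, transgenic minus wild type (horizontal axis), with its 95% interval for the 37 tested genes, coloured and ruled off by role. Filled diamonds mark the 6 genes with an adjusted p under 0.05, and short black strokes mark the lower bound, on the log2 scale, of genes not well above background on a wild-type array. Among the myeloid chemokines Ccl4 stands at 4.96, whereas 9 of the 10 stromal chemokines are open circles between -0.61 and 1.55.

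Cell types other than progenitors were followed through marker lists beside these calls. Of 17 tested macrophage markers 10 rose and 0 fell, with a median log2 difference of 2.12, but 6 of them were tested through the transgenic arrays alone. Of the 11 well above background on every array 7 rose, with a median of 2.02, against 0.815% of all such features. Their summed signal, in units of the array's 75th percentile, was 69.7 and 67.4 on the transgenic arrays against 59.2 and 58.1 on the wild-type arrays, and most of it was the integrin Itgam, at a difference of -0.07 ± 0.09 SE. Without Itgam the sum was 22.6 and 23.1 on the transgenic arrays, against 12.1 and 9.47 on the wild-type arrays. Among them were Cd74 at 3.21 ± 0.14 SE, the mannose receptor Mrc1 at 2.97 ± 0.22 SE and the complement subunit C1qc, which rose at least 7.92-fold (adjusted p = 0.0161). With normexp correction the log2 differences were 2.50 for Cd74, 1.33 for Mrc1 and 1.48 for C1qc, all still called. That of C1qc was then smaller than its bound. Of other macrophage markers, Adgre1 (F4/80) was well above background on the transgenic arrays alone and Cd68 on both transgenic arrays and 1 wild-type array. Neither was called, with bounds of 1.38-fold for Adgre1 (difference 1.45 ± 0.39 SE, limma adjusted p = 0.151) and 1.03-fold for Cd68. Cd163 and Fcgr1 were well above background on no array. The pan-leukocyte markers, of which 3 of 5 tested rose, 1 of them among the 3 well above background on every array, summed to 2.19 and 2.37 on the transgenic arrays, against 0.63 and 0.41 on the wild-type arrays, and their member Ptprc, the leukocyte antigen CD45, rose at least 2.72-fold (adjusted p = 0.0437). With normexp correction the log2 difference of Ptprc was 0.47, smaller than this bound, and was not called (limma adjusted p = 0.242). It was 1.99 without transgenic array 1 and 1.82 without transgenic array 2, called in neither fit. No marker of mature adipocytes or dendritic cells was called by limma, but all 6 tested mature adipocyte markers (median difference 1.79) and all 4 tested dendritic cell markers (median 1.03) were higher on both transgenic arrays than on either wild-type array, against 24.6% of all features. Of these, 3 mature adipocyte markers and 1 dendritic cell marker were tested through the transgenic arrays alone. The part of these markers in the rise of the myeloid chemokines was not tested. In sorted cells measured in bulk, more cells of a type and more RNA per cell cannot be told apart.

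Several CC chemokines of myeloid cells are neighbours in the genome, while Ccl24, also called higher, has its probe on chromosome 5. On mouse chromosome 11 the probes of Ccl5, Ccl9, Ccl6, Ccl3 and Ccl4 lay in this order at mm9 chr11:83339296-83478111, and 4 of these 5 genes rose, with differences of 0.52 to 4.96. A second group on the same chromosome, at chr11:81850650-81990227, held Ccl2, Ccl7, Ccl11, Ccl12, Ccl8 and Ccl1. Of those, 5 were tested and 0 called, with differences of -0.21 to 2.28. Ccl5, which draws lymphocytes and monocytes and whose probe comes before that of Ccl9, had 0.05 and 0.17 on the transgenic arrays and 1.02 and -1.84 on the wild-type arrays. The wild-type arrays lay on either side of the transgenic ones, so its difference of 0.52 ± 0.88 SE was not called. It was 1.95 without wild-type array 1 (adjusted p = 0.0162) and -0.91 without wild-type array 2 (adjusted p = 0.0248), calls in opposite directions.

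On chromosome 5 the neutrophil attractants Cxcl5, Cxcl3, Cxcl1 and Cxcl2, with Ppbp and Cxcl15 between them, lay at mm9 chr5:91190490-91334593, and none of the 4 tested was called. Farther along, at chr5:92752191-92788626, lay the interferon-induced ligands of Cxcr3, namely Cxcl9, Cxcl10 and Cxcl11. All 3 were tested and none was called, with a median difference of 0.19. Cxcl11 had 9.02 and 9.10 on the transgenic arrays and 9.38 and 9.13 on the wild-type arrays, and Cxcl10 had 4.60 and 5.29 on the transgenic arrays and 4.95 and 4.56 on the wild-type arrays. Cxcl9 had -0.46 and 0.66 on the transgenic arrays and -0.20 and -0.07 on the wild-type arrays. The arrays overlapped for Cxcl9 and Cxcl10. The Cxcl11 probe shares a stretch of 20 bases with 7 probes of other names on the array, where no other member's probe shares one with more than 1, so its level may not be that of Cxcl11 alone. The second Cxcl11 probe was far dimmer. It had 3.14 and 3.08 on the transgenic arrays and 2.95 and 3.02 on the wild-type arrays. That second probe shares no such stretch, but only probes of the array were compared, and not transcripts. Its level, too, may therefore not be that of Cxcl11 alone.

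**Figure D3:**
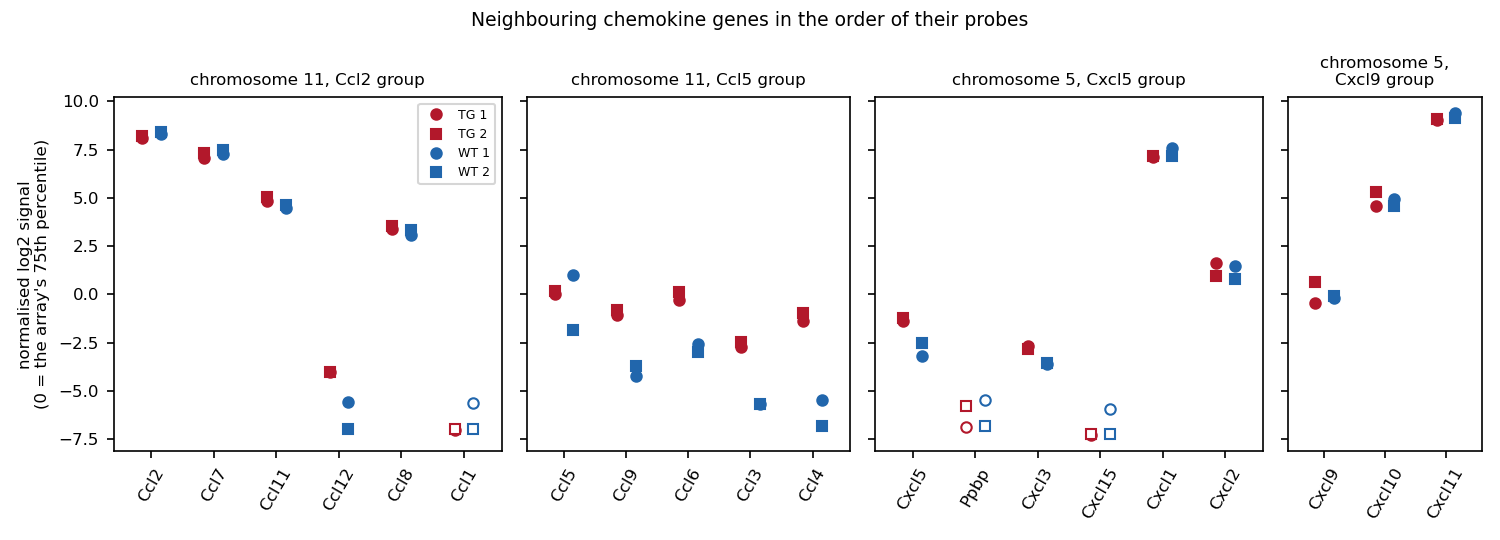
Normalised log2 signal (vertical axis) of neighbouring chemokine genes in the order of their probes along chromosomes 11 and 5, on the transgenic (TG, red, left of each pair) and wild-type (WT, blue) arrays 1 (circles) and 2 (squares), with open symbols for genes that were not tested. In the Ccl5 group the red symbols of Ccl9, Ccl6, Ccl3 and Ccl4 all lie above the blue ones, by 2.68 to 4.96 on average. In the Ccl2 group red and blue lie close together except for Ccl12 and, on wild-type array 1, the untested Ccl1.

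Several members had more than 1 tested probe. The probes of Ackr4 gave -1.50 and -1.47, and those of Cxcl9 gave 0.24 and 0.27. By contrast the second probe of Cxcl10, designed on another transcript record, was at -1.82 and -1.12 on the transgenic arrays and -2.84 and -2.96 on the wild-type arrays, a difference of 1.43 ± 0.28 SE (adjusted p = 0.0853) against 0.19 ± 0.26 SE for the probe used. Cxcl12 gave 0.36 and 0.79, and Cxcl11 gave -0.19 and 0.13, opposite in sign and neither called. Ccl19 and Ccl27a have near-identical copies in the mouse genome that their probes may not tell apart.

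**Figure D4:**
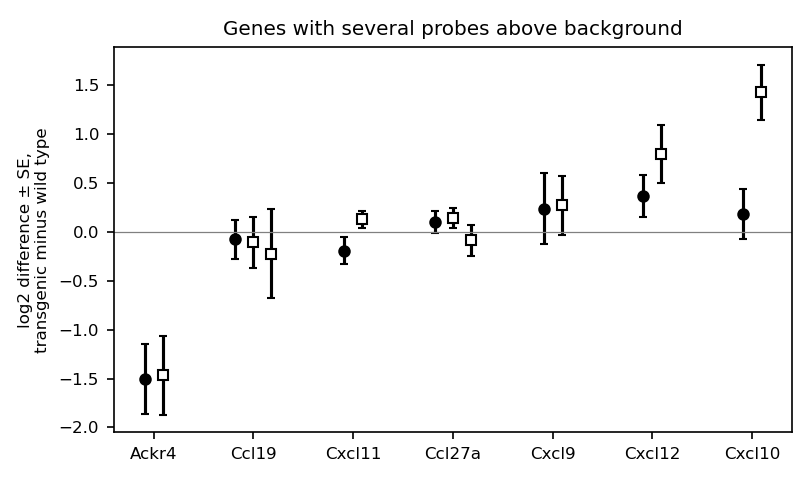
Log2 difference, transgenic minus wild type, with its standard error (vertical axis) for each tested probe of the 7 genes that had several tested probes, the probe used filled and the others open. The 2 probes of Ackr4 lie together near -1.50, and those of Cxcl10 lie apart at 0.19 and 1.43.

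The epithelial chemokines gave no call. Ccl25, a ligand of Ccr9, was at 0.58 and 0.28 on the transgenic arrays and 0.10 and 0.27 on the wild-type arrays, a difference of 0.24 ± 0.15 SE. Ccl27a, a ligand of Ccr10, was at 1.28 and 1.18 on the transgenic arrays and 1.22 and 1.03 on the wild-type arrays, a difference of 0.10 ± 0.11 SE. Ccl28, another ligand of Ccr10, was at -3.11 and -2.70 on the transgenic arrays and -3.00 and -2.72 on the wild-type arrays, a difference of -0.05 ± 0.27 SE. The arrays overlapped for Ccl27a and Ccl28. Ccl20, Ccl26, Cxcl15 and Cxcl17 were well above background on no array, as were Ccl1 and Xcl1 of the lymphocyte chemokines.

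The receptors were mostly dim, and none of the 10 tested was called, 4 of which passed through the transgenic arrays alone. Ccr1, Ccr2, Ccr4, Cxcr1, Cxcr2, Cxcr3, Cxcr5, Cx3cr1 and Xcr1 were not well above background on any array. These include Ccr1, a receptor of Ccl3, Ccl6 and Ccl9, and Ccr2, the receptor of Ccl2 and Ccl7. Cxcr6, the receptor of Cxcl16 on T cells, had -3.40 and -3.69 on the transgenic arrays and -5.54 and -5.17 on the wild-type arrays, where it was not well above background. It was at least 1.65-fold higher (group means -3.54 on the transgenic and -5.36 on the wild-type arrays) and missed the threshold (adjusted p = 0.0754). The bound was 1.04-fold without wild-type array 2 and 2.62-fold without wild-type array 1. With normexp correction its log2 difference was 0.054 (adjusted p = 0.901) and with normexp correction and quantile normalization 0.27, both smaller than this bound. A second probe of Cxcr6 was well above background on transgenic array 2 alone and was not tested. It had -5.56 and -4.39 on the transgenic arrays and -5.62 and -5.81 on the wild-type arrays, a difference of 0.74.

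Ccr7, the receptor of Ccl19 on dendritic and T cells, had -0.63 and -0.75 on the transgenic arrays and -1.37 and -3.69 on the wild-type arrays. Both transgenic arrays were higher, but the wild-type arrays lay far apart (difference 1.84 ± 0.73 SE, adjusted p = 0.264). The difference was 3.0 without wild-type array 1 (adjusted p = 0.0149) and 0.67 without wild-type array 2 (adjusted p = 0.0645). Ccr6, the receptor of Ccl20, had -2.69 and -2.81 on the transgenic arrays and -1.68 and -2.55 on the wild-type arrays (adjusted p = 0.366). The values of Ccr8 were -3.15 and -3.17 on the transgenic arrays and -2.68 and -2.84 on the wild-type arrays (adjusted p = 0.401). Ccr10, Ccr9 and Cxcr4 each had a level on 1 of the wild-type arrays, Ccr10 with -4.49 and -3.51 on the transgenic arrays and -5.71 and -4.49 on the wild-type arrays (adjusted p = 0.361). Cxcr4, the receptor of Cxcl12, had -4.38 and -4.12 on the transgenic arrays, between -5.75 and -3.08 on the wild-type arrays. Ccr3, the eotaxin receptor, was well above background on transgenic array 1 alone and was not tested.

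Atypical receptors included 2 with lower values on the transgenic arrays. Ackr3, formerly Cxcr7, the scavenger of Cxcl12 and Cxcl11, was at 6.76 and 6.85 on the transgenic arrays, against 7.37 and 7.38 on the wild-type arrays. The groups did not overlap, and the difference of -0.57 ± 0.10 SE missed the threshold (adjusted p = 0.0629). With normexp correction Ackr3 was called lower, at -0.49 (adjusted p = 0.0430). Ackr4, formerly Ccrl1, the scavenger of Ccl19, Ccl21 and Ccl25, was at 0.49 and 0.51 on the transgenic arrays, against 2.56 and 1.43 on the wild-type arrays (difference -1.50 ± 0.36 SE, adjusted p = 0.124). Both wild-type arrays were higher and lay far apart, so that the difference was -0.94 without wild-type array 1 and -2.07 without wild-type array 2. Ccrl2, which binds chemerin, was at -1.99 and -1.76 on the transgenic arrays and -2.17 and -2.33 on the wild-type arrays, a difference of 0.38 ± 0.20 SE (adjusted p = 0.371).

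Genes of the chemokine system outside the naming rule moved in both directions. Of 8 tested, 1 rose and 1 fell. Pf4, a chemokine of platelets and macrophages, was at 0.36 and 0.30 on the transgenic arrays, against -2.50 and -2.91 on the wild-type arrays, and rose by 3.03 ± 0.20 SE (adjusted p = 0.0161). Ackr2, the scavenger of inflammatory CC chemokines, was at 4.75 and 4.83 on the transgenic arrays, against 5.73 and 5.66 on the wild-type arrays, and fell by 0.91 on the log2 scale (SE 0.09, adjusted p = 0.0253). Both genes had a level on each array, and their groups did not overlap.

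Downstream of the receptors, 20 of 28 genes of G protein signalling were tested, 6 of them through the transgenic arrays alone. Of the 20, 3 rose and 0 fell, with a median difference of 0.16, and all 3 were among those 6. Of the 14 well above background on every array 0 were called higher by limma, with a median of 0.01. The 3 were the leukocyte guanosine triphosphatase Rac2 at 1.96 ± 0.22 SE, its exchange factor Vav1 at 2.83 ± 0.40 SE and the G protein subunit Gng2 at 2.68 ± 0.28 SE, which rose at least 3.90-fold, 3.96-fold and 3.40-fold (adjusted p = 0.0291 for Rac2, 0.0468 for Vav1 and 0.0279 for Gng2). Of the wild-type arrays, 1 had a level well above background for Rac2 and Vav1 and none for Gng2. The bound of Gng2 was 5.4-fold without wild-type array 1 and 2.14-fold without wild-type array 2. With normexp correction the log2 differences were 0.75 for Rac2, 0.81 for Vav1 and 0.56 for Gng2, none called and all smaller than the bounds. Gnai2, the G protein subunit through which chemokine receptors signal, was at 5.34 and 5.35 on the transgenic arrays and 5.31 and 5.29 on the wild-type arrays.

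Among NF-kB genes and the cytokines that induce chemokines, 18 of 20 were tested, 3 of them through the transgenic arrays alone, 1 rose and 1 fell. Interleukin 1 beta (Il1b), a myeloid cytokine, was at -2.85 and -2.59 on the transgenic arrays, against -5.67 and -6.89 on the wild-type arrays, and rose at least 2.92-fold (group means -2.72 on the transgenic and -6.28 on the wild-type arrays, adjusted p = 0.0441). Neither wild-type array had a level well above background for Il1b, and its bound was 4.64-fold without wild-type array 1 and 1.84-fold without wild-type array 2. With normexp correction the log2 difference of Il1b was 0.62, smaller than these bounds, and was not called (limma adjusted p = 0.178). Interleukin 33 (Il33), an alarmin of stromal cells, was at 2.63 and 2.95 on the transgenic arrays, against 3.71 and 4.00 on the wild-type arrays, and fell by 1.06 on the log2 scale (SE 0.15, adjusted p = 0.0477). The wild-type arrays lay above the transgenic ones for Il33 and below them for Il1b. Of the 7 pathway genes called, Pf4 alone was still called when either of the transgenic arrays was left out, and with normexp correction Pf4, Ackr2 and Il33 were. The NF-kB subunit Rela differed by 0.01 ± 0.14 SE. Of genes for chemokine processing and display on heparan sulfate, 11 of 13 were tested and none was called. The smallest p-values there were those of syndecan 1 (Sdc1), at 0.77 ± 0.12 SE (adjusted p = 0.0513), and of Dpp4, a protease that trims chemokines, at -0.71 ± 0.13 SE (adjusted p = 0.0712).

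**Figure D5:**
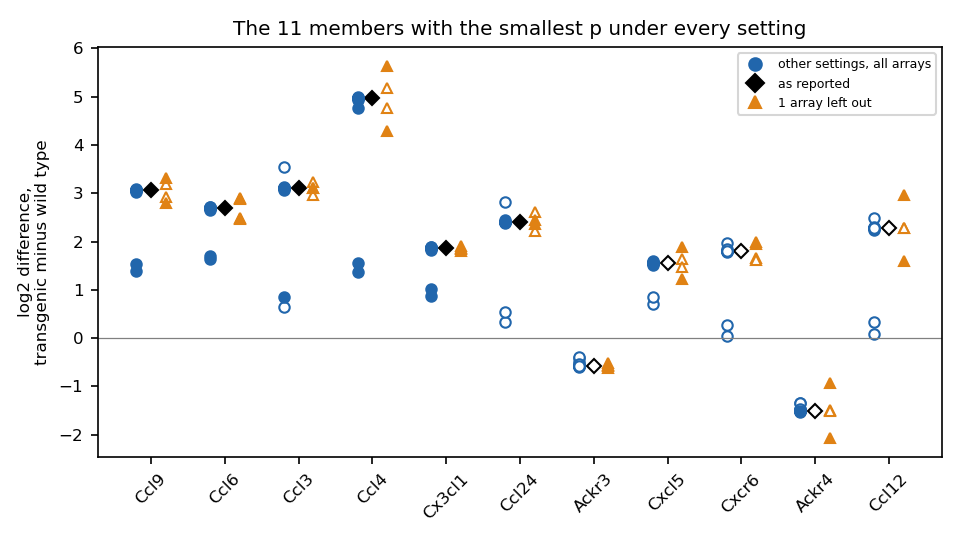
Log2 difference, transgenic minus wild type (vertical axis), of the 11 members with the smallest p, as reported (black diamonds), with other processing of all arrays (blue circles, to the left) and with 1 array left out (orange triangles, to the right), filled where the adjusted p was under 0.05. No gene crosses 0, and Ccl4 lies between 1.37 with normexp background correction and 5.64 without wild-type array 1.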

How the data were processed

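Total RNA of the sorted cells was labelled with Cy3 and hybridised to Agilent arrays, all 4 on 1 slide and in 1 scan. The processed intensity that the authors deposited per spot is background-subtracted and detrended, and per the file headers it came from Feature Extraction 10.7.3.1 and array design 028005, whose probe positions are on mm9. The log2 value table that the authors deposited, with its making not given in the sources used, correlated at 0.9998 or more with the centred scanner values. It was used as an alternative.

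Here control and outlier-flagged spots were left out, log2 intensities were averaged per probe, and each array's 75th percentile was subtracted. Names were updated by RefSeq accession (GRCm38.p6, names only), which renamed 2 members, to Ackr3 and Ackr4. A gene entered by its brightest probe. Transgenic and wild-type arrays were set against each other with limma 3.58.1 (R 4.3.3, lmFit, eBayes with trend, 2-sided, Benjamini-Hochberg over all features). The fit was also run on simulated arrays with the same spread in both groups. These do not cover the arrays here, where the 2 wild-type arrays differed with an SD of 0.58 over features and the transgenic arrays with 0.35. The median SE was 0.18, and the number of arrays limits the precision. Members and lists were chosen with earlier results of these data known, and so were the tests. The text gives per-array values for every called member and, in each role, for the 4 tested members with the smallest p. From each pathway list it gives the called members and the 2 with the smallest p. Other members and pathway genes that are named were chosen for their role. The alternatives were other scalings, normexp correction, filters, probe choices, no trend, a replicate block and each array left out. The repeats for pathway genes and marker sums were chosen after seeing the data. The values of 1 untested member are not reported here.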

Additional observations from a re-analysis of the deposited data

How the results depend on the processing

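The count of 6 called members was 4 to 6 under the other scalings, normexp correction, the spot and probe choices, the authors' table and no filter on dim probes. It was 2 with genes well above background on all 4 arrays, where most myeloid chemokines could not be tested, and 0 with no intensity trend, where 13 members had an unadjusted p under 0.05 by limma and 13 features were called in all. The members behind these counts changed, and Ccl24 was called in 5 of the 11 other settings with all arrays that tested it. With no filter on dim probes Cxcl5 was called and Ccl24 was not, and with normexp correction Ackr3 was called lower. The 421 called features were 692 with no filter on dim probes. With 1 array left out they were 88 to 3959, and called members 0 to 16.

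The median of the myeloid chemokines was 2.59 with quantile normalization, 0.34 with normexp correction, 0.45 with normexp correction and quantile normalization, 0.83 with no filter and 0.31 with genes well above background on all 4 arrays. It was 1.98 to 2.45 with 1 array left out. The median of the stromal chemokines was -0.16 to 0.00 over all settings.

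The labels number the samples of both groups 1 and 2. Same-numbered arrays did not deviate together (r = 0.002), so the numbers were not used as pairs. With the replicate number as a block there were 787 called features and 9 called members, with Ackr4 (-1.50), Cxcl14 (-0.61) and Cxcl5 (1.55) added.

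Of 582 values for single genes, 18, in 10 uncalled genes, changed sign, and the cause was not tested. With normexp correction these were Ccr10 at -0.015, Ccr9 at -0.26 and Cxcr4 at -0.23. With normexp correction and quantile normalization they were Ccr9 at -0.036 and Cxcl11 at 0.085, and with quantile normalization Cxcl11 at 0.10. With 1 array left out the values were -0.22 to 0.064 for Ccl19, -0.26 to 0.15 for Ccl28, -0.91 to 1.95 for Ccl5, -0.18 to 0.74 for Ccr9, -0.16 to 0.53 for Cxcl10, -0.18 to 0.51 for Cxcl2, -0.32 to 0.80 for Cxcl9 and -1.17 to 1.5 for Cxcr4. Signal over background limits what the arrays measure: 20 members had no level to test.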

Other observations

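Other marker lists gave fewer calls. Of 14 adipocyte progenitor markers 0 rose and 2 fell, with Cd24a at -1.58 ± 0.11 SE and Pi16 at -1.16 ± 0.15 SE. Of 6 tested neutrophil markers 2 rose, both among the 3 tested through the transgenic arrays alone. Of 9 T and NK cell markers 2 rose, 1 of them among the 6 well above background on every array. Of 11 endothelial markers 1 rose, among 6 well above background on every array, and of 10 pericyte and smooth muscle markers 3 rose, 2 of them among the 9 above background on every array, and 1 fell. Over all features 0.969% were called higher and 0.752% lower. None of 2 tested B cell markers, 2 mast cell markers and 4 erythroid and platelet markers was called by limma at an adjusted p under 0.05, and 1 of 2 tested mesothelial markers fell. With normexp correction S100a8, Cd3d and Rgs5, of the neutrophil, T cell and pericyte lists, were not called (limma adjusted p = 0.0941, 0.253 and 0.0787). The other genes called in these lists still were. Cd24a, Acta2 and Notch3 alone of them were called when either transgenic array was left out.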
